A study of Mus musculus with 18 samples.

Results

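The proteasome genes of mouse calf muscle were followed across 3 ages, 2, 11 and 25 months. They were taken by name as every gene measured by a probeset with 1 gene symbol whose symbol begins with Psma, Psmb, Psmc, Psmd, Psme, Psmf or Psmg and a digit, with Psmb8 and Psmb9 left out. The rule found 42 genes among the 13255 gene symbols on the array. Their 44 probesets include a pair each for Psma3 and Psmb5, and the brighter of each pair was used. By role they comprise 5 genes of the alpha ring and 7 of the beta ring of the 20S core, 6 ATPases and 10 other subunits of the 19S cap, 3 chaperones of 19S assembly, 3 chaperones of 20S assembly, 3 activators, the inhibitor Psmf1, and 2 catalytic subunits of specialised proteasomes (Psmb10, Psmb11). The other 2 match the name pattern and are no subunit: Psmc3ip, a factor of meiotic recombination, and Psme3ip1, a partner of the activator Psme3. These 2 are kept in all counts. Psma4, Psma5, Psmd1 and Psme2 lie on probesets shared with other symbols and so are not among the 42.

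The proteasome is the protease that degrades proteins tagged with ubiquitin. Its barrel-shaped 20S core has alpha rings that gate the entry and beta rings that hold the catalytic sites, and the 19S cap recognises ubiquitin, removes it, and unfolds the substrate with a ring of ATPases. In skeletal muscle this pathway removes much of the contractile protein that is lost in atrophy, and transcription of the subunit genes is known to respond to the factor Nfe2l1 when proteasome capacity falls short.

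The gastrocnemius, a fast calf muscle, was taken whole from both legs of untreated male C57BL/6 mice aged 2, 11 or 25 months, with 6 arrays per age that the labels call biological replicates. The labels name no allele or treatment beyond age. RNA depleted of ribosomal RNA was hybridised to 18 whole-transcript arrays, and all values below are log2 of the deposited array intensity. A change is a difference between mean log2 values (with its standard error, SE), and "rose" or "fell" is used where limma's test gave a Benjamini-Hochberg adjusted p under 0.05 over all 15300 probesets. In whole muscle, more RNA per cell and more cells of a type cannot be told apart. The brightness of a probeset depends on its probes too, so levels are compared between ages and not between genes.

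Promoters were read for 35 of the 42 genes from RefSeq (build GRCm38.p6), as windows of 300 bases from 250 before to 50 after the annotated start. Each was searched on both strands for TGACNNNGC, the core of the antioxidant response element to which Nfe2l1 and Nfe2l2 bind, and for CCAAT, the box bound by the factor NF-Y. These motifs were searched because both have been described in proteasome promoters. The 5 windows below are shown as a member of each kind: Psmc6 and Psmd12 rose and hold the element core, Psmd4 rose and holds CCAAT boxes, Psmd8 rose and holds neither, and Psmb6 holds the element core and was not called. Matches are in capitals, with ATTGG as CCAAT on the other strand.
Psmc6 (chr14:45329574-45329873, + strand): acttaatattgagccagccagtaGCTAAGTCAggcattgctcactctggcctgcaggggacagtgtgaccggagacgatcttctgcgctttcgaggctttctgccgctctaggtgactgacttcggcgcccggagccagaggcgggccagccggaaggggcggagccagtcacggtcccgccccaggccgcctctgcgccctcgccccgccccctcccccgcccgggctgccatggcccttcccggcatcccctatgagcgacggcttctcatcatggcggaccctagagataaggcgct
Psmd12 (chr11:107479278-107479577, + strand): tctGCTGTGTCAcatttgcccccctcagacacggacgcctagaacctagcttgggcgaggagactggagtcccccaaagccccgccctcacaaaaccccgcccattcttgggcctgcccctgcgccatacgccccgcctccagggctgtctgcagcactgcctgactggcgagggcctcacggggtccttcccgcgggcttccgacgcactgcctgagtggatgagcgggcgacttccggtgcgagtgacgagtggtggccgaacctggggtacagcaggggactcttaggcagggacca
Psmd4 (chr3:95042565-95042864, - strand): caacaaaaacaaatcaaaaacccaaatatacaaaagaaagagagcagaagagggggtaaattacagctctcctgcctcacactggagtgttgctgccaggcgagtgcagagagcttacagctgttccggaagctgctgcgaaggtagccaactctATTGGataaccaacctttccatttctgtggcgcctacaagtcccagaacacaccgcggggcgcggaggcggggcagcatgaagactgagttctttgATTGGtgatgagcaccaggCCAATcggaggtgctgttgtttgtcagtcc
Psmd8 (chr7:29180624-29180923, - strand): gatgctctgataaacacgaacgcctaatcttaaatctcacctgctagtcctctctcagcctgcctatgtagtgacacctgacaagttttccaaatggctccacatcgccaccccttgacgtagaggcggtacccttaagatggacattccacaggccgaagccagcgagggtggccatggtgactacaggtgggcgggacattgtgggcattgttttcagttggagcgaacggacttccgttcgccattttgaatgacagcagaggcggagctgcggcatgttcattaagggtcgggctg
Psmb6 (chr11:70525107-70525406, + strand): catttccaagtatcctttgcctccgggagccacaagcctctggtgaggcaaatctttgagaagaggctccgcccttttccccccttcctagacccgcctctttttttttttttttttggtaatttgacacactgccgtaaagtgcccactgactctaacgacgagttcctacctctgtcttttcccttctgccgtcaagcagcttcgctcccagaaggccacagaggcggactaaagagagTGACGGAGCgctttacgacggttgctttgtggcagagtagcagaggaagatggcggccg

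The element core was found in 6 of 35 member promoters (17.1%), those of Psmb5, Psmb6, Psmc6, Psmd9, Psmd12 and Psme4. Over all 32851 windows of the table the share was 12.4%, and over the 17491 coding genes it was 14.8%. It was present in 2 of the 11 promoters of genes that rose from 2 to 11 months and in 4 of the 24 others. Its place differed between genes. With the annotated start as base 0, the match began at base -9 in Psmb6 and at -47 in Psmb5, but at -227 in Psmc6 and -247 in Psmd12. CCAAT was present in 15 of 35 member promoters (42.9%) against 42.3% of coding genes, in 4 of the 11 that rose and 11 of the 24 others. No member promoter held both motifs, and in Psmd14 a CCAAT and an ATTGG match overlapped. A match is a string of letters and not a measured binding site.

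From 2 to 11 months, 13 of the 42 genes rose (31.0%) and 0 fell. Of all probesets, 11.9% rose and 7.18% fell. The genes that rose were Psma2 of the alpha ring, Psmb2, Psmb3 and Psmb7 of the beta ring, the ATPases Psmc1 and Psmc6, the cap subunits Psmd2, Psmd4, Psmd8, Psmd11 and Psmd12, the chaperone Psmd5 and the inhibitor Psmf1. The differences were small. They ran from -0.16 to 0.36 over the 42 genes, with 32 above 0 and a median of 0.14, against a median of -0.02 over all probesets. Of all 15300 probesets, 7062 lay above 0. Of the 20 members with an unadjusted p under 0.05, only Psmc3ip was lower at 11 months, and the one-way test with Tukey's pairs called 10 genes higher and 0 lower.

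Proteasome probesets are bright, and bright probesets as a class were higher at 11 months. Of the 42, 31 lie in the brightest 25% of probesets, where 26.0% rose and the median difference was 0.09. In that class 2733 of 3825 differences lay above 0. Among those 31 members 11 rose (35.5%, median 0.15), and among the 11 dimmer members 2 rose (18.2%, median 0.02). The spread of signal on an array (its interquartile range in log2 units, here called signal range) also tended wider in the older mice. Its mean over 6 arrays was 2.19 (SD 0.107) in young mice, 2.33 (SD 0.0816) by 11 months and 2.26 (SD 0.0812) by 25 months, and the difference of 0.14 between 2 and 11 months had a two-sided exact permutation p of 0.026 (0.0779 adjusted over the 3 pairs of ages). With this range as a covariate in limma's fit, 1 member rose from 2 to 11 months (Psmd4), the background was 3.42%, and the median change of the 42 genes was 0.04. A further quantile normalization of the arrays left 9 genes higher with a median of 0.05, where 8.68% of all probesets rose. The 13 calls are thus stated for arrays compared as deposited.

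**Figure D1:**
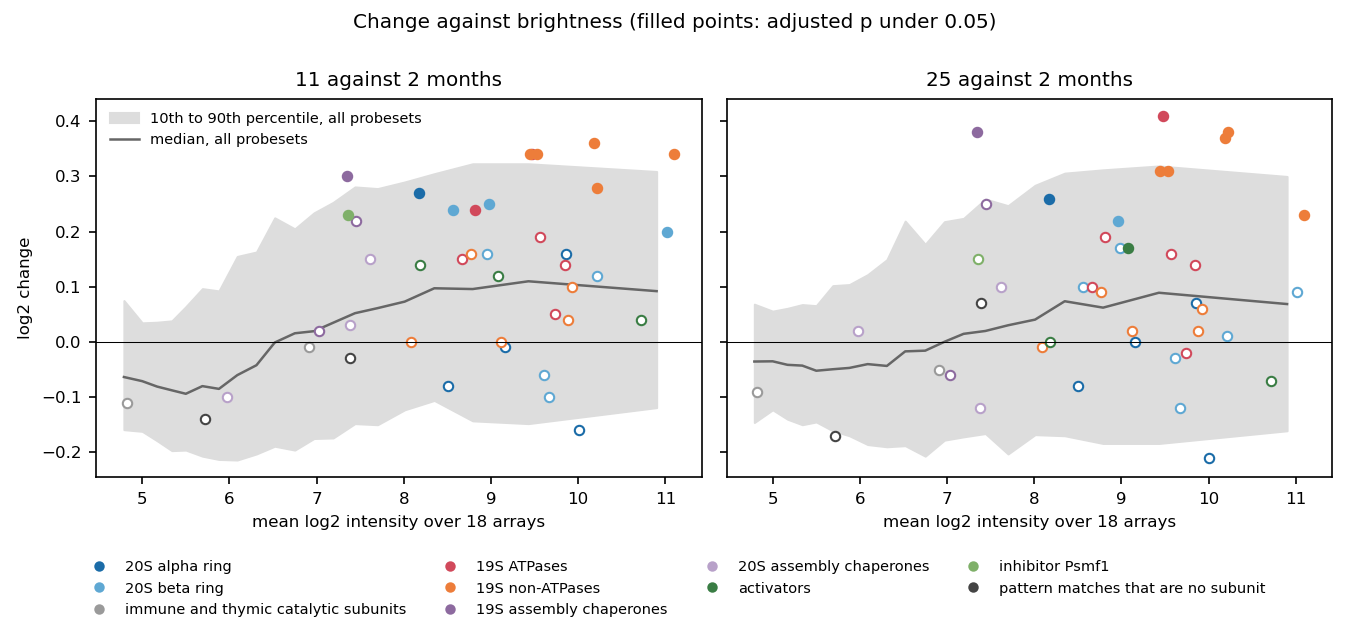
Change in log2 intensity (vertical axis) against mean log2 intensity over 18 arrays (horizontal axis) for 42 proteasome genes, coloured by role, at 11 against 2 months (left) and 25 against 2 months (right). Filled points passed limma's test, the grey line is the median and the grey band the 10th to 90th percentile of all probesets of like brightness. The line lies above 0 for bright probesets, and the 5 cap subunits with changes of 0.34 or more at 11 against 2 months include Psmd2 at its right end, past the band, and 4 genes above it.

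The 19S cap held the largest changes. All 16 cap subunits found by the name rule had differences of 0.00 or more between 2 and 11 months. Their median was 0.17, and 7 of the 16 rose (43.8%). All 16 lie in the brightest 25% of probesets, where 26.0% rose and the median was 0.09. Of the 10 subunits that are no ATPase, 5 rose, and the median was 0.22. Sem1, a cap subunit without a Psm name, is counted with the associated factors below. It was at -0.29 from 2 to 11 months (limma adjusted p = 0.109) and at -0.33 from 2 to 25 months (limma adjusted p = 0.0865). Neither difference was called. Psmd8, a lid subunit that completes lid assembly, had a lowest, median and highest value of 9.74, 9.93 and 10.19 at 2 months, 10.13, 10.31 and 10.42 at 11 months and 10.16, 10.35 and 10.47 at 25 months. Of the 2-month arrays only replicate 1, at 10.19, reached into the range of the older ages. Psmd8 rose by 0.36 ± 0.08 (SE, 1.28-fold, limma adjusted p = 0.0041) from 2 to 11 months.

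Psmd12, another lid subunit, ran from 9.01 over 9.29 to 9.61 at 2 months, from 9.58 over 9.58 to 9.85 at 11 months and from 9.48 over 9.64 to 9.78 at 25 months. A single 2-month array, replicate 3 at 9.61, reached into the 11-month values. The gene rose by 0.34 ± 0.09 (1.27-fold, limma adjusted p = 0.00896) from 2 to 11 months. Psmd11, the lid subunit that clamps lid, base and core together, had 9.88, 9.99 and 10.21 at 2 months, 10.10, 10.32 and 10.36 at 11 months and 10.31, 10.39 and 10.43 at 25 months as lowest, median and highest. Its 25-month arrays all lay above its 2-month arrays, and the 11-month arrays overlapped both. The rise from 2 to 11 months was 0.28 ± 0.06 (1.21-fold, limma adjusted p = 0.0024).

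Psmd4, a ubiquitin receptor of the cap, separated the young from the adult arrays. Its lowest, median and highest values were 9.11, 9.21 and 9.40 at 2 months, 9.49, 9.56 and 9.66 at 11 months, and 9.33, 9.51 and 9.76 at 25 months. Every 11-month array was above every 2-month array, which held for 2 of the 42 genes, Psmd4 and Psmf1, and for 4.05% of all probesets. Psmd4 rose by 0.34 ± 0.06 (1.27-fold, limma adjusted p = 0.00134) and still rose, by 0.26, in the fit that holds signal range as a covariate (limma adjusted p = 0.0327).

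Psmd2 is the scaffold of the cap's base where ubiquitin receptors and the deubiquitinase Usp14 dock. It ran from 10.73 over 10.85 to 11.17 at 2 months, from 11.11 over 11.24 to 11.41 at 11 months and from 11.01 over 11.13 to 11.33 at 25 months. One young array, replicate 3, lay among the adult ones, and the 25-month arrays overlapped both other ages. Psmd2 rose by 0.34 ± 0.08 (1.27-fold, limma adjusted p = 0.00479) from 2 to 11 months. The remaining 5 non-ATPase subunits were not called. Psmd3 and Psmd13 differed by 0.00 between 2 and 11 months with 95% intervals of -0.11 to 0.11 and -0.11 to 0.12, so a change of the size seen in Psmd8 lay outside their intervals. Psmd14, the deubiquitinase of the lid, differed by 0.16 (-0.04 to 0.36), Psmd7, its partner in the lid, by 0.10 (-0.02 to 0.21), and Psmd6 by 0.04 (-0.18 to 0.26).

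**Figure D2:**
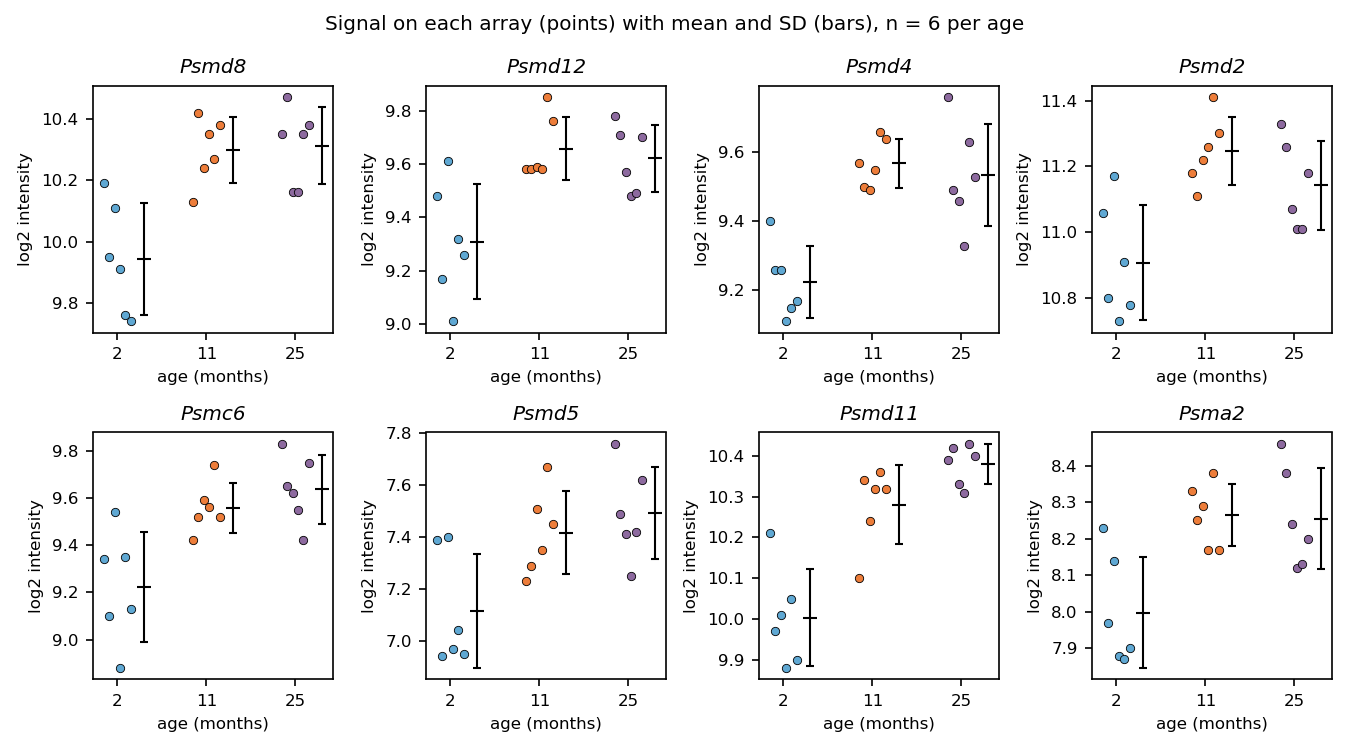
Log2 intensity (vertical axis) on each array (points) at 2, 11 and 25 months (horizontal axis) for the 8 genes with the largest called changes, with mean and SD (bars, n = 6 per age). For Psmd4 every 11-month point is above 9.40, the highest 2-month point, and for Psmd11 every 25-month point is above 10.21.

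Among the ATPases, which unfold the substrate, all 6 differences between 2 and 11 months were above 0 and 2 of them passed the test. Psmc6 had a lowest, median and highest value of 8.88, 9.23 and 9.54 at 2 months, 9.42, 9.54 and 9.74 at 11 months and 9.42, 9.64 and 9.83 at 25 months. The lowest 2-month array was replicate 4, and 1 young array, replicate 3, overlapped the older ones. Psmc6 rose by 0.34 ± 0.09 (1.26-fold, limma adjusted p = 0.0144). Psmc1 rose 1.18-fold (0.24, adjusted p = 0.0216). Psmc2, Psmc3, Psmc4 and Psmc5 differed by 0.19, 0.14, 0.15 and 0.05 and were not called.

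Among genes found by the name rule, the 20S core was more mixed than the cap. Of its 12 subunits, 4 rose from 2 to 11 months (33.3%) and 5 had differences below 0. In the brightest 25% of probesets 26.0% rose. The difference between cap and core was not tested. Psma2 was the called alpha subunit. Its lowest, median and highest values were 7.87, 7.94 and 8.23 at 2 months, 8.17, 8.27 and 8.38 at 11 months and 8.12, 8.22 and 8.46 at 25 months. Of the young arrays only replicate 1, at 8.23, overlapped those of 11 months, and the gene rose by 0.27 ± 0.07 (1.2-fold, limma adjusted p = 0.0135). Psma6 was at 0.16 (adjusted p = 0.182), Psma1 at -0.01 and Psma7 at -0.08. Psma3 was at -0.16 (adjusted p = 0.366), with its young arrays spread from 9.47 in replicate 4 to 10.46 in replicate 3. The dimmer second probeset of Psma3 was at -0.18 (adjusted p = 0.179).

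In the beta ring the structural subunits Psmb2 and Psmb3 rose 1.19-fold (0.25, adjusted p = 0.0325) and 1.18-fold (0.24, adjusted p = 0.0279), and Psmb7, the subunit with trypsin-like activity, rose 1.15-fold (0.20, adjusted p = 0.0419). The other catalytic subunits did not pass the test. Psmb5, the chymotrypsin-like site, was at 0.12 (95% interval -0.06 to 0.31) and Psmb6, the caspase-like site, at -0.10 (-0.25 to 0.06). Psmb1 was at 0.16 (adjusted p = 0.106) and Psmb4 at -0.06 (adjusted p = 0.537).

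The chaperones and regulators around the particle gave 2 calls from 2 to 11 months. Psmd5, a chaperone that holds ATPases before the base is complete, had 6.94, 7.0 and 7.40 as lowest, median and highest at 2 months, 7.23, 7.40 and 7.67 at 11 months and 7.25, 7.46 and 7.76 at 25 months. Young replicates 1 and 3 overlapped the older arrays, and Psmd5 rose by 0.30 ± 0.10 (1.23-fold, limma adjusted p = 0.0392). Psmd10, a chaperone that is also known as an oncoprotein in liver, was at 0.22 (adjusted p = 0.108) and Psmd9 at 0.02. The 20S chaperones Psmg1, Psmg2 and Psmg3 were at 0.03, 0.15 and -0.10, with adjusted p of 0.17 or more.

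Psmf1, which inhibits the core in vitro, ran from 7.10 over 7.24 to 7.38 at 2 months, from 7.39 over 7.44 to 7.59 at 11 months and from 7.22 over 7.39 to 7.62 at 25 months. The 2- and 11-month arrays did not overlap, by a margin of the second decimal, and Psmf1 rose 1.17-fold (0.23, limma adjusted p = 0.0153). The activators Psme1, Psme3 and Psme4, which open the core in place of the cap, were at 0.14, 0.12 and 0.04, and the smallest adjusted p was 0.0754 (Psme3). Of the pattern matches that are no subunit, Psmc3ip was at -0.14 (adjusted p = 0.115) and Psme3ip1 at -0.03.

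**Figure D3:**
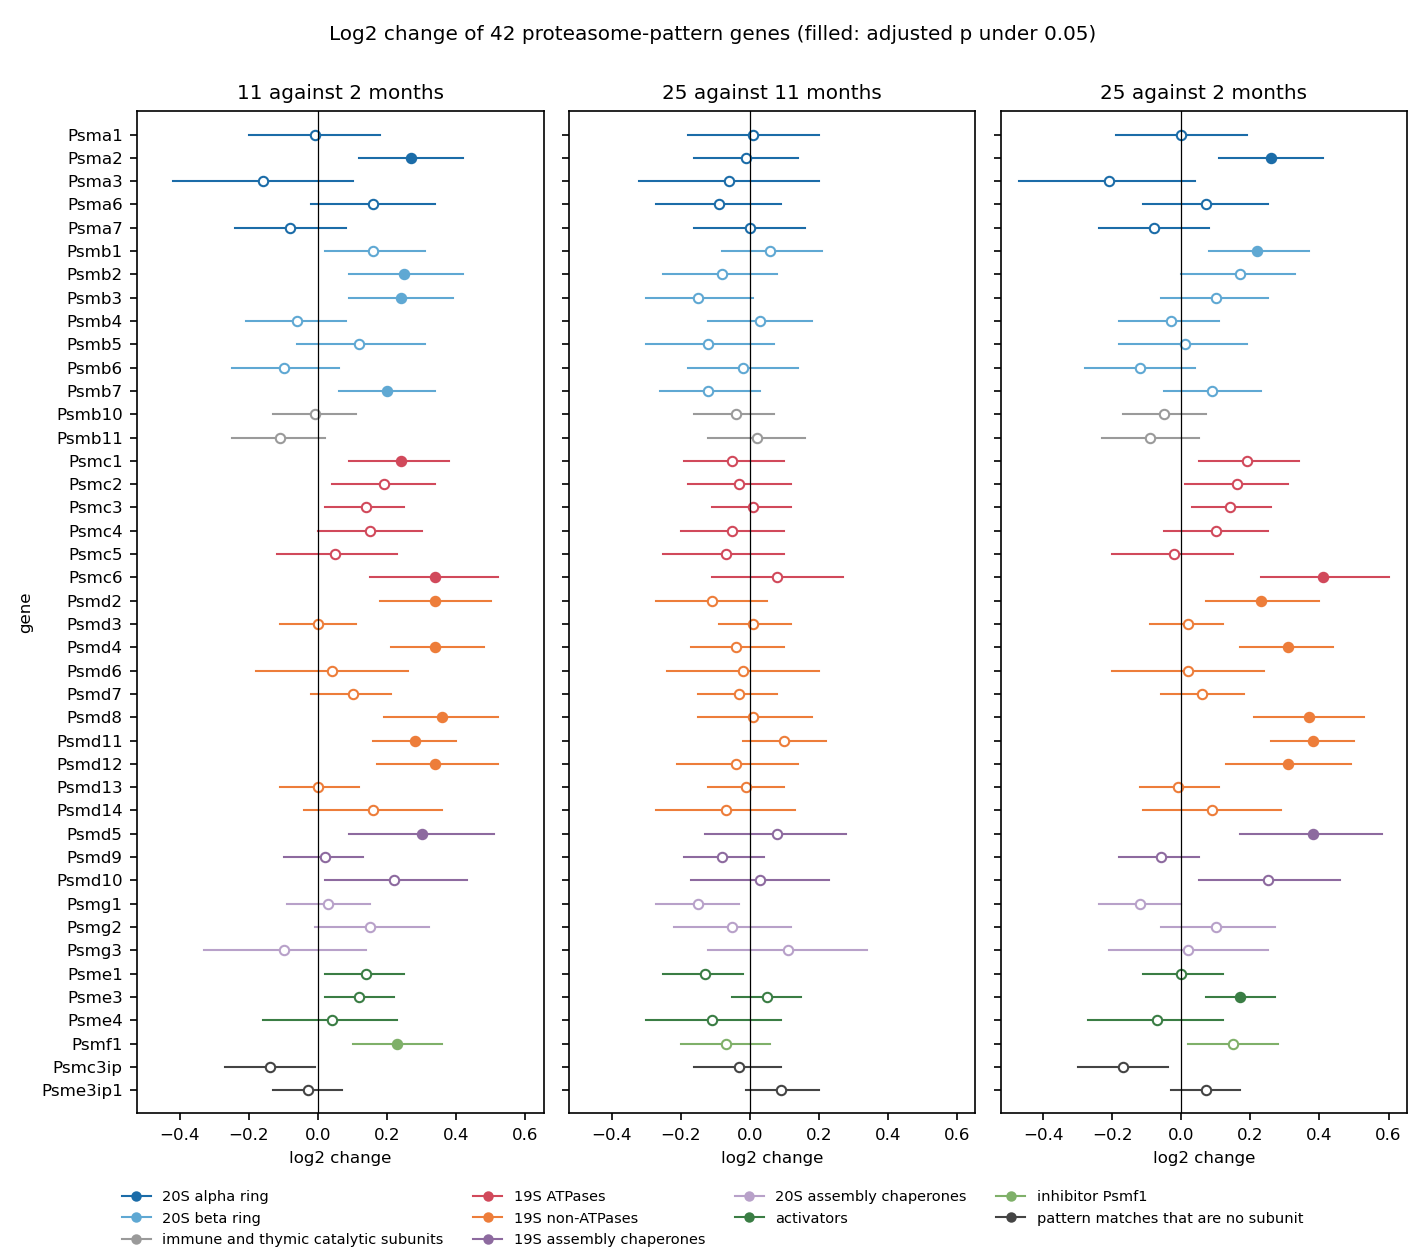
Log2 change with 95% interval (horizontal axis) of 42 genes (vertical axis, coloured by role) in the 3 comparisons of ages; filled points had an adjusted p under 0.05. From 2 to 11 months 13 genes are filled, from 11 to 25 months 0, and from 2 to 25 months 10, all to the right of 0.

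From 11 to 25 months no member passed limma's test in either direction, where 0.0588% of all probesets rose and 0.0915% fell. There were 2 members with an unadjusted limma p under 0.05, Psme1 and Psmg1, where 1591 of all 15300 probesets had such a p. The one-way test with Tukey's pairs called 0 members. The differences ran from -0.15 to 0.11 with a median of -0.03, and 15 lay above 0 and 27 below. In the brightest 25% of probesets the median was -0.03 too, with 1438 of 3825 above 0 and 2387 below. Psmg1, a chaperone that dimerises with Psmg2 to build the alpha ring, had a median of 7.46 at 11 months and 7.27 at 25 months, a difference of -0.15 (95% interval -0.27 to -0.03, limma adjusted p = 0.405). Psme1, an activator known to be induced by interferon gamma, had medians of 8.11, 8.26 and 8.14 at the 3 ages, and its difference from 11 to 25 months was -0.13 (-0.25 to -0.02, adjusted p = 0.427). The 25-month arrays of both genes overlapped their 11-month arrays.

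The member with the smallest p of each other role was as follows from 11 to 25 months. Psmb3 was at -0.15 (adjusted p = 0.504), Psma6 at -0.09 (0.744), Psmc5 at -0.07 (0.788) and Psmd9 at -0.08 (0.649). Psmb10 was at -0.04 (0.824). Psmd11 was at 0.10 (0.567), Psmf1 at -0.07 (0.711) and Psme3ip1 at 0.09 (0.51). Adjusted p-values in parentheses are limma's. For the 8 genes described array by array, the 95% interval from 11 to 25 months was narrowest for Psmd11, -0.02 to 0.22, and widest for Psmd5, -0.13 to 0.28.

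From 2 to 25 months, 10 of the 42 genes rose (23.8%) and 0 fell, where 10.5% of all probesets rose and 6.95% fell. The median difference was 0.08 and 17 members had an unadjusted limma p under 0.05. So had 4592 of all 15300 probesets and 1757 of the 3825 in the brightest 25%. This comparison shares its 2-month arrays with that of 11 against 2 months, so the values below are given side by side and are no second test of the same rise. In the brightest 25% of probesets 23.1% rose, and 9 of the 31 members there rose (29.0%) against 1 of the 11 dimmer members (9.09%). With the signal range as a covariate 8 members rose, against 9.07% of all probesets, and Psma3 and Psme4 fell. Psma3 was at -0.21 and Psme4 at -0.07 without the covariate, and neither was called.

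By role, the genes higher at 25 months were 5 of 10 cap subunits that are no ATPase, 1 of 6 ATPases, 1 of 5 alpha and 1 of 7 beta subunits, 1 of 3 cap chaperones and 1 of 3 activators. Beside these counts stand the 10.5% of all probesets, and 23.1% of the brightest 25%, that rose. Differences between roles were not tested. Psmd11 rose by 0.38 ± 0.06 (1.30-fold, limma adjusted p = 1.06e-04), beside 0.28 at 11 months. Its 25-month arrays all lay above its 2-month arrays, which held for no other member and for 4.29% of all probesets. Psmc6 rose by 0.41 ± 0.09 (1.33-fold, adjusted p = 0.00312), beside 0.34 at 11 months. Psmd8 rose by 0.37 ± 0.08 (adjusted p = 0.0024) and Psmd5 by 0.38 ± 0.10 (adjusted p = 0.0115). Both changes were close to those at 11 months, 0.36 and 0.30.

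Psmd4 and Psmd12 rose by 0.31 each (adjusted p of 0.00237 and 0.016), beside 0.34 each at 11 months. Psma2 rose by 0.26 (adjusted p = 0.0168) and Psmd2 by 0.23 (adjusted p = 0.0395). Psmd2 was the cap subunit whose difference was smaller at 25 than at 11 months by the widest margin, 0.23 beside 0.34, and a difference of -0.11 between the 2 later ages was not called (adjusted p = 0.664). The call for Psmd2 at 25 months was lost without any of 7 arrays, among them 4 of the 2-month arrays.

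Psmb1 and Psme3 were called at 25 months and not at 11 months. Psmb1, a structural beta subunit, had a lowest, median and highest value of 8.57, 8.81 and 9.06 at 2 months, 8.88, 8.99 and 9.06 at 11 months and 8.96, 9.0 and 9.19 at 25 months. It rose by 0.22 (1.17-fold, limma adjusted p = 0.0316), beside 0.16 at 11 months (adjusted p = 0.106). Psme3, an activator of nuclear proteasomes, ran from 8.82 over 8.99 to 9.12 at 2 months, from 9.04 over 9.10 to 9.20 at 11 months and from 9.11 over 9.14 to 9.20 at 25 months. A single 2-month array, at 9.12, reached the 25-month values, and Psme3 rose by 0.17 (1.13-fold, adjusted p = 0.0149) beside 0.12. In neither gene was the step from 11 to 25 months called. The converse set, Psmb2, Psmb3, Psmb7, Psmc1 and Psmf1, was called at 11 months and not at 25 months, with differences at 25 months of 0.17, 0.10, 0.09, 0.19 and 0.15.

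Whether the later step differed from the earlier one was tested in the same fit, as the change from 11 to 25 months minus that from 2 to 11 months. No member passed limma's test, where 1.52% of all probesets passed below 0. An unadjusted limma p under 0.05 was found for 11 members, for 3302 of all 15300 probesets and for 1073 of the 3825 in the brightest 25%. The median over members was -0.18, and the nearest to the threshold were Psmd4 at -0.38 (adjusted p = 0.0777) and Psmd2 at -0.45 (adjusted p = 0.0805). Over the 3 ages together, limma's moderated F called 11 of the 42 genes (26.2%), where 19.2% of all probesets passed. In the brightest 25% of probesets 33.9% passed, against 9 of the 31 members there (29.0%). Those 11 were 5 cap subunits that are no ATPase, Psmc1 and Psmc6, Psma2, Psmd5, Psme3 and Psmf1. No beta ring gene passed it. The smallest adjusted p was that of Psmd11 (2.43e-04).

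No subunit of a specialised proteasome was called. Psmb10, the inducible trypsin-like subunit of the immunoproteasome, had medians of 6.94, 6.93 and 6.87 at the 3 ages, a difference of -0.01 from 2 to 11 months (95% interval -0.13 to 0.11) and of -0.05 from 2 to 25 months (-0.17 to 0.07). The left-out Psmb8 and Psmb9, the other immunoproteasome subunits, had means of 6.18, 6.10 and 6.24, and of 6.80, 6.65 and 6.82. Adjusted p for these 3 genes was 0.221 or more in every comparison of ages. From 11 to 25 months Psmb8 was at 0.14 (95% interval 0.03 to 0.25, limma adjusted p = 0.409). Psmb9 was at 0.17 over that step (-0.01 to 0.35, limma adjusted p = 0.514). Psmb11, the catalytic subunit of thymus cortex, was the only member in the dimmest 25% of probesets, with medians of 4.87, 4.77 and 4.78 and no call. Psmc3ip, whose known role is in meiosis, had means of 5.82, 5.68 and 5.65, and its difference at 25 months was -0.17 (adjusted p = 0.06).

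Macrophage markers were detected at array means of 6.36 to 6.91 and 1 of the 8 was higher at 11 than at 2 months. T and NK cell markers had array means of 5.09 to 5.48, and 1 of the 8 was lower. Those of B and plasma cells, neutrophils and testis had no call. The fibre markers had array means of 13.45 to 13.66, and 2 of the 8 measured were lower at 11 months and 0 higher. Of all probesets 11.9% rose and 7.18% fell in that comparison. Differences lay above 0 for all 8 macrophage markers. They lay below 0 for all 8 T and NK cell markers and for 7 of the 8 fibre markers. The T and NK cell list was dim, its mean at percentile 14.7 of all probesets. Among 2-month arrays, replicate 6 was highest for Cd8a, Cd4 and Cd3g, and not for Cd2, Cd3e, Nkg7, Prf1 or Gzma. Cd8a was at 5.91 there, and its medians at 2 and 11 months were 5.17 and 5.19. That array was also highest for Cd79a (6.94, 2-month median 5.52), Cd79b and Ms4a1, and not for Jchain. From 2 to 25 months 1 macrophage marker was higher and 1 fibre marker lower, where 10.5% of all probesets rose and 6.95% fell. The part of cell makeup in the proteasome values was not tested.

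The spread between arrays was widest in young muscle. The median SD over the 42 genes was 0.15 in young mice and 0.10 and 0.12 at the later ages, against 0.13, 0.10 and 0.10 over all probesets. Averaged over the 42 genes, the deviation of an array from the mean of all 18 ran from -0.22 to 0.07 at 2 months, from -0.03 to 0.12 at 11 months and from -0.05 to 0.15 at 25 months. The ages overlapped. The lowest was 2 months replicate 4, which held the lowest of the 18 values for 18 of the 42 genes (42.9%), against 12.5% of all probesets and 25.5% of the brightest 25% of them. That array also had the narrowest signal range, 2.03. Without it, 8 genes rose from 2 to 11 months in place of 13, namely Psma2, Psmc6, Psmd2, Psmd4, Psmd8, Psmd11, Psmd12 and Psmf1, and Psma3 fell. The share of all probesets that rose was then 9.15% in place of 11.9%. Without it 8 of the 10 rises from 2 to 25 months were kept, and Psma3 fell there too. With it 10.5% of all probesets rose in that comparison.

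Young replicates 1 and 3 sat with the older arrays, at 0.02 and 0.07, and without either of them 16 genes rose from 2 to 11 months. Of all probesets 14.7% rose without replicate 1 and 13.6% without replicate 3. The 19S subunits ran from -0.30 to 0.05 at 2 months, 0.00 to 0.16 at 11 months and -0.06 to 0.19 at 25 months. The 20S subunits ran from -0.24 to 0.12, -0.10 to 0.13 and -0.10 to 0.18. The brightest 25% of probesets spanned a narrower range, from -0.14 to 0.03, 0.00 to 0.09 and -0.03 to 0.07. The part of each array's signal range in these deviations was not tested beyond the fit with the range as covariate.

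**Figure D4:**
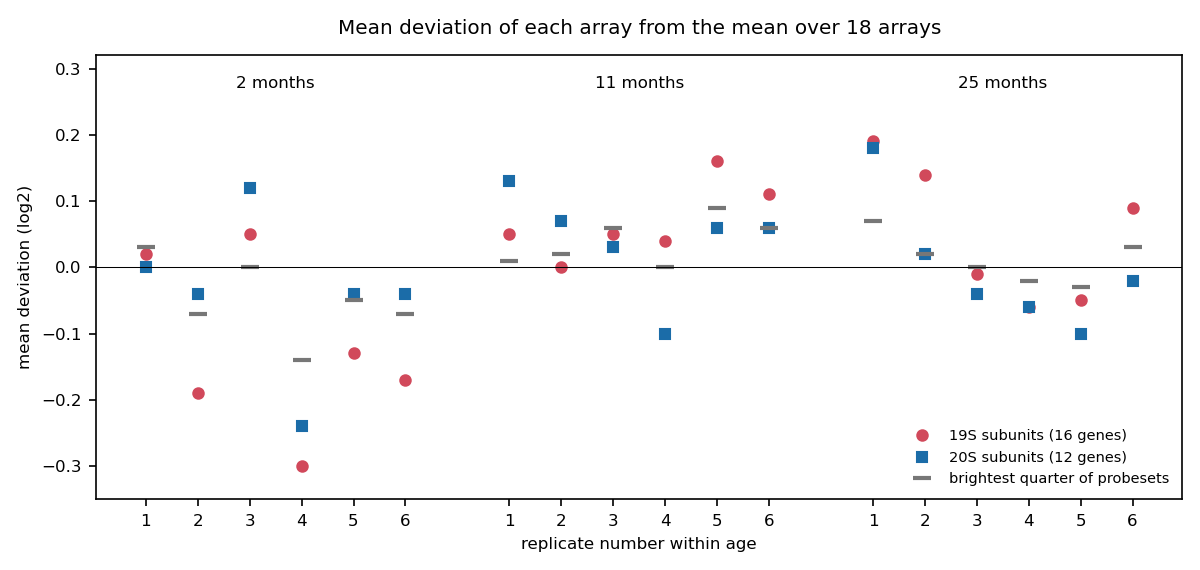
Mean log2 deviation of each array (vertical axis) from the mean over 18 arrays, for 16 cap (19S) subunits, 12 core (20S) subunits and the brightest 25% of probesets, by age and replicate number (horizontal axis). The 2-month replicate 4 is lowest in all 3 measures, at -0.30, -0.24 and -0.14, and 2-month replicates 1 and 3 lie near 0 or above.

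Factors that act with the proteasome were read from 5 lists. Their counts stand beside the 11.9% of all probesets, and 26.0% of the brightest 25%, that rose from 2 to 11 months. Over the same step 7.18% of all probesets fell. From 2 to 25 months 10.5% of all probesets, and 23.1% of the brightest 25%, rose, and 6.95% of all fell. In the fit with signal range as a covariate, 5 of the 14 calls named here for 2 to 11 months were kept: those of Nfe2l1, Keap1, Nploc4, Fbxo21 and Fbxo32. The other 9 ended, those of Usp14, Zfand2a, Txnl1, Maff, Mafg, Vcp, Ufd1, Fbxo31 and B2m. From 2 to 25 months 12 of 15 were kept, and Maff, Mafg and Fbxo31 ended. Of 10 measured associated factors, 3 rose from 2 to 11 months and 0 fell. Usp14, the deubiquitinase that docks on Psmd2, rose 1.39-fold (0.47, limma adjusted p = 0.00513) and by 0.46 from 2 to 25 months (1.38-fold, adjusted p = 0.0053). Zfand2a and Txnl1, which bind the cap, rose by 0.16 and 0.15 (adjusted p of 0.0329 and 0.0455). The call of Txnl1 was lost without any of 12 of the 18 arrays and that of Zfand2a without any of 4. Uchl5, the other deubiquitinase that docks on the cap, fell by 0.25 from 2 to 25 months (adjusted p = 0.0298), a call lost without any of 5 arrays. Pomp, the chaperone that completes the core, was at 0.20 and 0.27 against 2 months and was not called (adjusted p of 0.142 and 0.0551).

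Of 10 measured regulators of proteasome transcription, 1 rose and 3 fell from 2 to 11 months, and 2 rose and 3 fell from 2 to 25 months. Nfe2l1 averaged 11.12 ± 0.08, 11.43 ± 0.05 and 11.47 ± 0.15 at the 3 ages (SD, n = 6). All its later arrays lay above all 2-month arrays, and it rose 1.24-fold from 2 to 11 months (0.31, adjusted p = 0.0018) and 1.28-fold from 2 to 25 months (0.35, adjusted p = 4.16e-04). Its relative Nfe2l2, the factor of the oxidative stress response, was at 0.15 at 11 months (adjusted p = 0.0653) and rose by 0.23 at 25 months (adjusted p = 0.00668). Keap1, which targets Nfe2l2 for degradation, fell by 0.18 from 2 to 11 months (adjusted p = 0.00659), and Maff and Mafg, small partners of both factors, fell by 0.22 and 0.23 (adjusted p of 0.0331 and 0.0374). The call of Maff was lost without any of 6 arrays and that of Mafg without any of 8.

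Of 10 measured ubiquitin activating enzymes, segregase subunits and shuttles, 6 rose from 2 to 11 months and 5 from 2 to 25 months, and 0 fell. Vcp, the segregase that extracts tagged proteins, rose 1.15-fold by 11 months (0.20, limma adjusted p = 0.00869). Its cofactors Nploc4 and Ufd1 rose by 0.44 (1.35-fold, adjusted p = 3.13e-05) and 0.27 (adjusted p = 0.00762). Rad23b, a shuttle that docks on the cap, rose by 0.22 at 25 months (adjusted p = 0.00272). Of 7 atrophy ligases, which tag muscle proteins for degradation, 4 rose by 11 months and 3 by 25 months. Fbxo32 rose 2.11-fold by 11 months (1.08, adjusted p = 7.72e-05), Fbxo21 1.32-fold (0.41, adjusted p = 9.92e-06) and Fbxo31 1.2-fold (0.26, adjusted p = 0.00417). Of 8 antigen processing partners only B2m, the light chain of class I molecules, rose, by 0.53 at 11 months (1.44-fold, adjusted p = 0.00212). None of the 5 lists had a call from 11 to 25 months.

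Of the subunits left out for shared probesets, Psma5 was at 0.12 and 0.17 from 2 to 11 months on its 2 probesets, which a pseudogene shares (adjusted p of 0.301 and 0.0991). The probesets naming Psme2, and Psmd1 with Armc9, were at -0.03 and -0.04. Psma4 lies on a probeset shared with AY074887, at 0.06 (adjusted p = 0.674), and on another shared with Ankhd1 and Eif4ebp3, which fell by 0.21 (adjusted p = 0.00846). These values cannot be assigned to a single gene.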

How the data were processed

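The deposited file holds 1 linear array intensity per probeset and array. Per the submitters' processing notes, the authors used Affymetrix Expression Console 1.2.1 with RMA (background correction, quantile normalization and probe summary), and mm8 is the build named there. Log2 of the intensity was computed here. Of 15300 probesets, 13592 carry 1 symbol in the platform annotation, 941 several and 767 none, and all 42 proteasome symbols matched RefSeq's current table (GRCm38.p6). A linear model with 1 mean per age was fitted over all probesets with limma 3.58.1 in R 4.3.3, with Benjamini-Hochberg adjustment over 15300 and a threshold of 0.05. It was run on simulated arrays with independent noise per probeset. Those arrays held no built-in difference in signal range, so the run cannot speak to that feature. Array medians lay between 97.6 and 101 intensity units, and the number of arrays limits the precision.

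The 42 members and the gene lists were chosen with earlier results of these data known. Named genes were, per comparison, the 8 called members of largest change, other called members, the member of smallest p in roles without a call, and up to 3 genes per direction of each associated list. The labels call arrays of an age biological replicates, and replicate numbers recur between ages. Deviations of same-numbered arrays correlated at -0.325 to 0.42, over 0.1 in 7 of 18 pairs, so the numbers were not taken as pairs. The brightest 25% are the 3825 probesets of highest mean log2 value. There were 10 alternative settings and the omission of each array in turn. The study's one-way test with Tukey's pairs was among them.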

Additional observations from a re-analysis of the deposited data

Results flagged for a closer look

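Of 66 groups of 6 arrays tested (22 genes at 3 ages), 1 held an array that stood apart from the rest, and chance gives about 1 in 20. Psmb8 in 2 months replicate 1 was at 6.04, where the nearest of the other 5 arrays was at 6.18. This gap made up 0.639 of the group's range, above Dixon's critical value for 6 arrays. Psmb8 was not a member and was not called in any comparison.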

How the results depend on the processing

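Of the 13 rises from 2 to 11 months, 1 (Psmd4) was kept under all 10 settings and without any single array, 12 ended with the signal range as covariate and 5 without some array; of the 10 from 2 to 25 months, 7 were kept throughout. The number of members that rose from 2 to 11 months was 1 with that covariate, 9 to 13 under the other settings and 8 to 16 without 1 array (8 without 2 months replicate 4). The share of all probesets that rose there was 3.42% with that covariate, 8.68% to 16.8% under the other settings and 8.24% to 14.7% without 1 array. The number of members that fell there was 0 to 1 without 1 array. The median change of 0.14 became 0.05 after further quantile normalization, 0.04 with the covariate, and 0.11 to 0.16 without 1 array. From 2 to 25 months, 7 to 11 rose over the settings and 8 to 13 without 1 array, and the number that fell was 1 after quantile normalization (Psmb6), 1 without the dim probesets (Psmc3ip), 2 with the covariate (Psma3, Psme4) and 0 to 1 without 1 array. Of all probesets 10.5% rose from 2 to 25 months in the main fit and 9.07% with the covariate. Over 3 ages, 5 members passed the F test with the covariate in place of 11, and 8 to 15 without 1 array. In the main fit 19.2% of all probesets passed the F test. For these 2 results the shares of all probesets in the other runs are not given here. From 11 to 25 months the count was 0 under every setting and omission run. With the replicate block the counts were 13, 0 and 9 for the 3 comparisons in order of age and 11 for the F test, and Psmd2 lost its call at 25 months; 6 of 18 arrays correlated best with their own number. The median from 11 to 25 months, -0.03, was 0.03 with the covariate. Of the called genes named, none turned its direction under the settings and omissions run. Of the calls of genes that are no members, 5 of 14 from 2 to 11 months and 11 of 15 from 2 to 25 months were kept throughout; Mafg lost its call at 25 months without any of 14 arrays. The causes were not tested.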
